A study of Capra hircus with 4 samples.

Results

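The genes described here are the semaphorins, plexins, ephrins, Eph receptors, netrins and netrin receptors of the goat ovary, taken by gene symbol from the deposited count matrices. They number 59 of 28944 features: 20 semaphorins, 8 plexins, 5 ephrin-A and 3 ephrin-B genes, 9 EphA and 5 EphB receptors, 4 netrins and 5 netrin receptors. The netrin receptor DCC is not analysed here. Nuclei came from the left ovaries of 4 goats aged about 3 years, 2 Du'an goats with litters of 1 and 2 Nubian goats with litters of at least 3, and each goat gave 1 droplet library. All 4 goats carried a progesterone device (CIDR, 300 mg) for 17 days to synchronise estrus, and no untreated goat was included. Breed, litter size and anything else that goats of a breed share cannot be told apart.

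Semaphorins, ephrins and netrins are guidance cues, first known for steering growing axons and since described in vessels, immune cells and reproductive tissue. Secreted class 3 semaphorins act through neuropilins and plexins, whereas most membrane-bound semaphorins bind plexins directly. Ephrins are held on the cell surface, so that ephrin and Eph receptor signal between touching cells and in both directions, and secreted netrins bind DCC, neogenin (NEO1) and the UNC5 receptors. In vessels, ephrin-B2 (EFNB2) is the textbook arterial and its receptor EPHB4 the textbook venous gene.

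After filtering, 8723 to 15848 nuclei were kept per goat, with 1755 to 3292 UMIs (unique molecular identifiers, 1 per captured RNA molecule) in the median nucleus, and libraries shared 54 to 131 barcodes in pairs. Nuclei were clustered without the guidance genes, and 30565 of them fell into 14 classes named from marker genes, where each name means that the nuclei resemble that cell type. Nuclei left without a name made up 12.7% to 54.8% of a library. Du'an replicate 1 held 1 mural granulosa nucleus, so that class rests on 3 goats, and ciliated nuclei reached 20, the fewest nuclei used for a goat, in 2 goats. Levels are given as CPM, the UMIs of a gene per 1000000 UMIs of a class in a goat. Where 4 values stand in a row they belong to the pair of Du'an goats and then the pair of Nubian goats, each in replicate order, and 3 values omit Du'an replicate 1. Levels are compared between classes and not between genes, since long genes yield more UMIs in nuclei. The granulosa gene FSHR lay between 48.2 and 923 CPM in the 10 classes outside the granulosa and cycling nuclei. In progenitor granulosa nuclei it reached 463 to 1071 CPM, against 3434 to 3544 CPM in cumulus nuclei. The granulosa marker list summed to 2035 to 2886 CPM in progenitor nuclei, within its range in pericyte nuclei (1235 to 3192 CPM). CYP19A1, a mural granulosa marker, varied between goats, from 0 to 398 CPM in macrophage and 0 to 377 CPM in lymphatic endothelial nuclei. The part of RNA from other cells in low levels, or in differences between goats and classes, was not tested.

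Lymphatic endothelial nuclei held the highest mean level of 15 of the 52 guidance genes that passed the filter on low counts. Blood endothelial nuclei held the highest level of 6, fibroblast and mural granulosa nuclei of 5 each, and epithelial, ciliated and theca nuclei of 4 each. The same count over all genes is not given, so these numbers only describe the family. For 15 of the 52, leaving out 1 goat put the highest mean in another class, among them EFNA5, EPHA4, EPHA6, EPHB2, PLXNA2, PLXND1 and SEMA6C. The 7 genes that did not pass were EPHA8, EPHA10, EFNB3, EFNA3, UNC5A, PLXNB3 and SEMA4G, with 5 to 469 UMIs in all kept nuclei. A class was tested against the mean log2 level of the other classes by edgeR's quasi-likelihood test on UMI counts summed per goat, with p-values adjusted over all genes, and a call needed an adjusted p under 0.05 and a log2 fold change of at least 1. By this rule 50 genes were higher in at least 1 class, 96.2% of those tested against 70.7% of all genes tested, and 41 were lower in at least 1, 78.8% against 42.5%. These were 151 higher and 141 lower calls in 728 tests of a gene in a class, where 11.9% and 7.17% of the tests of all genes were called higher and lower, and the lower calls numbered 92 without Nubian replicate 2. Since a gene could pass the filter through the class where it is high, these counts describe the family and support nothing further. Where the other classes hold few or no UMIs of a gene, its fitted fold change depends on the prior count of the fit and is no bound.

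**Figure D1:**
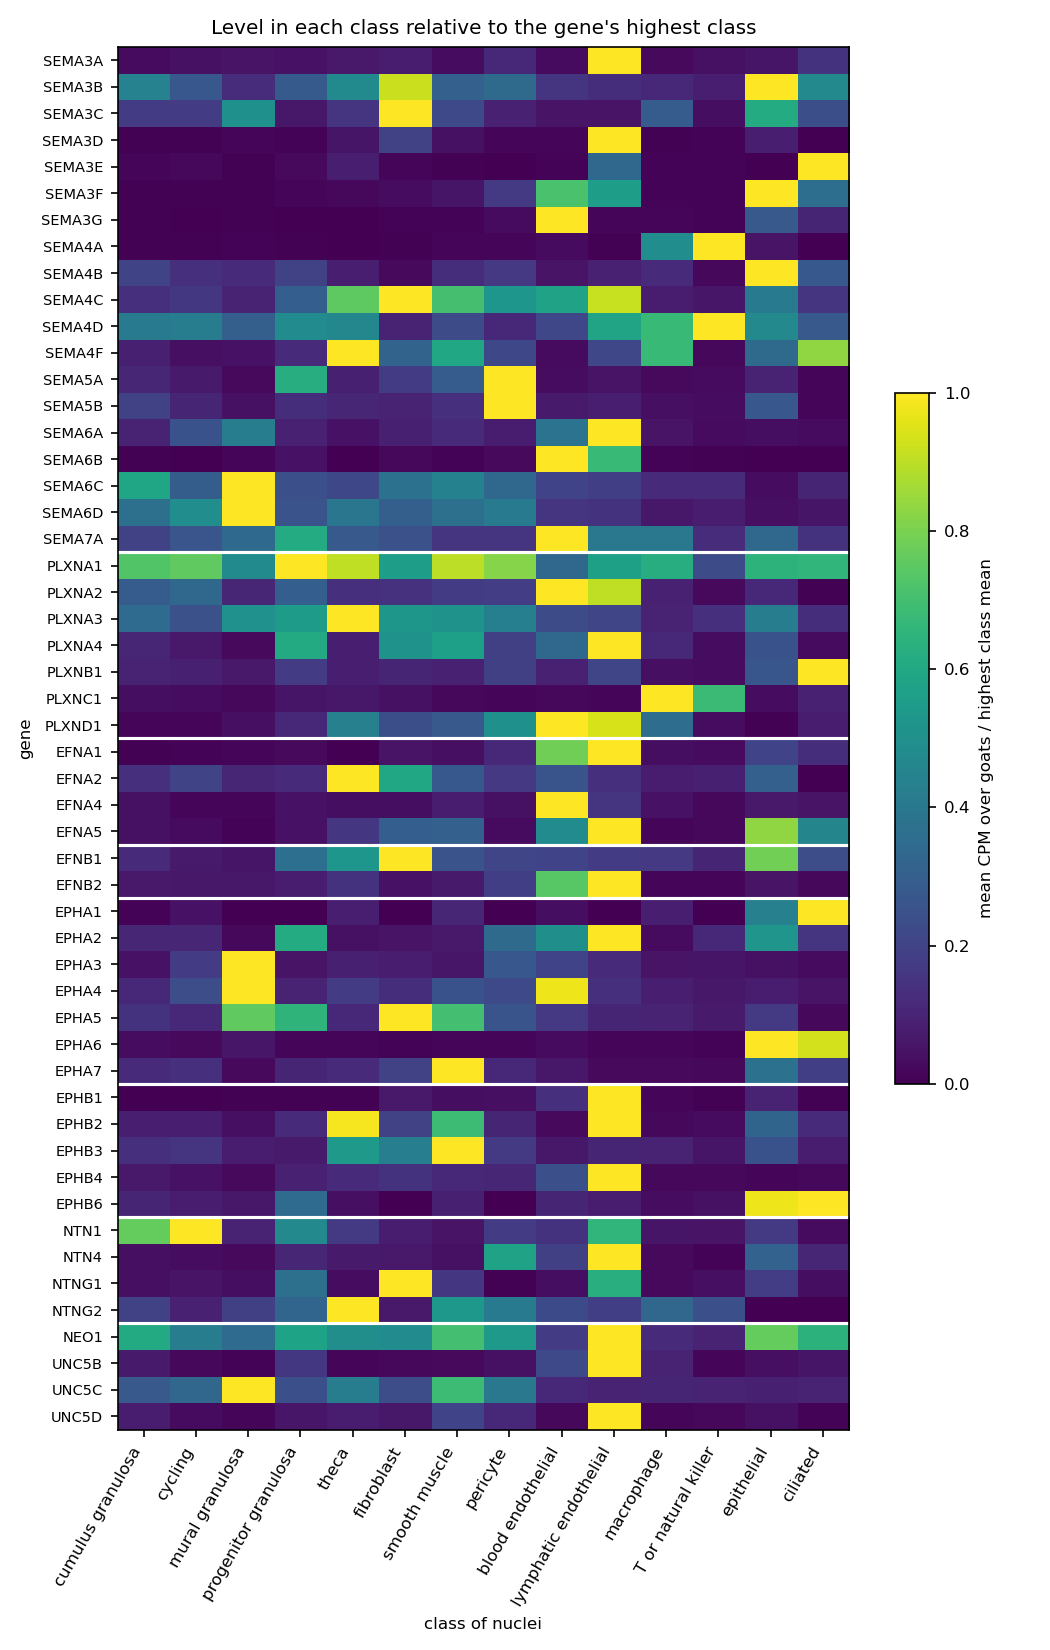
Mean level of the 52 tested guidance genes (rows, by family) in the 14 classes (columns), each row divided by its own highest class, so that colours compare classes within a gene. Lymphatic endothelial nuclei are brightest for 15 genes, a count that is not given over all genes.

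The secreted class 3 semaphorins divided between vessel, stromal and epithelial nuclei. SEMA3D, a repellent cue that acts through neuropilin 1, measured 686, 542, 677 and 582 CPM in lymphatic endothelial nuclei. No goat of any other class reached these levels, and the log2 fold change was 6.42 ± 0.25 (SE, adjusted p = 1.07e-26). SEMA3A, the founding class 3 repellent, showed the same preference with 1100.3, 754, 912 and 863 CPM, against 25.5 CPM on average in blood endothelial nuclei, and a log2 fold change of 4.35 ± 0.20 (SE, adjusted p = 2.76e-24). SEMA3G, a semaphorin known from arteries, measured 52.5, 27.4, 56.8 and 39.2 CPM in blood endothelial nuclei. Apart from epithelial nuclei, with 12.3 ± 17.1 CPM (SD, n = 4), other classes lay below all of these values, and the log2 fold change was 6.05 ± 0.30 (SE, adjusted p = 7.78e-21).

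SEMA3C, which guides migrating cells through plexin D1 and neuropilins, measured 1041, 1299.9, 309.6 and 908 CPM in fibroblast nuclei. The values overlapped those of epithelial, macrophage and mural granulosa nuclei, and the log2 fold change was 2.59 ± 0.24 (SE, adjusted p = 1.41e-12). Most fibroblast nuclei of Nubian replicate 1, the goat with the lowest value, came from cluster 18, with 556 of its 568 nuclei, and at a clustering resolution of 0.4 the call was lost (log2 fold change 0.55, adjusted p = 0.564). SEMA3B, a tumour suppressor semaphorin, measured 102, 103, 40.3 and 63 CPM in the same nuclei and overlapped ciliated, cumulus granulosa, theca and epithelial nuclei, the last of which had the highest mean (83.5 CPM). Its log2 fold change in fibroblast nuclei was 1.53 ± 0.27 (SE, adjusted p = 2.46e-05), a call that was also lost at that resolution (adjusted p = 0.297). SEMA3F, a ligand of neuropilin 2, reached 32.8, 56.1, 18.8 and 66.6 CPM in epithelial nuclei, where it overlapped ciliated, pericyte and both endothelial classes (log2 fold change 4.71 ± 0.34, SE, adjusted p = 5.00e-16). SEMA3E, the ligand that binds plexin D1 without a neuropilin, measured 82.4 CPM in Du'an replicate 2 and 96.4 CPM in Nubian replicate 2 in ciliated nuclei, above every goat of the other classes (log2 fold change 6.39 ± 0.42, SE, adjusted p = 1.85e-17).

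Among membrane-bound semaphorins, SEMA4A and SEMA4D were highest in T or natural killer nuclei. SEMA4A, a costimulator of T cells, measured 34.8, 32.5, 35.1 and 39.4 CPM in T or natural killer nuclei, above every goat of the other classes, and 14.2, 18.6, 18 and 18.7 CPM in macrophage nuclei. The log2 fold changes were 6.01 ± 0.28 (SE, adjusted p = 1.11e-22) and 4.96 ± 0.33 (SE, adjusted p = 2.05e-17). SEMA4D, known as CD100 on lymphocytes, measured 154, 92.2, 115 and 177 CPM in T or natural killer nuclei and overlapped macrophage, epithelial and progenitor granulosa nuclei (log2 fold change 1.55 ± 0.18, SE, adjusted p = 5.63e-10). SEMA4F measured 27.1, 4.79, 15.7 and 10.5 CPM in theca nuclei, a level that rests on 11 UMIs and overlapped 7 other classes. Its log2 fold change there was 2.02 ± 0.62 (SE, adjusted p = 0.0165), and the call was lost without Du'an replicate 1 (adjusted p = 0.106) and without Nubian replicate 1 (adjusted p = 0.0887). With nuclei classed one by one from their own marker score the direction of SEMA4F turned (log2 fold change -0.92).

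Class 5 semaphorins, which carry thrombospondin repeats, were both highest in pericyte nuclei. SEMA5A measured 1021, 831, 1004 and 748 CPM in pericyte nuclei, above every goat of the other classes, with a log2 fold change of 3.72 ± 0.19 (SE, adjusted p = 1.40e-21). The second class was progenitor granulosa, with 658, 657, 308 and 623 CPM and a log2 fold change of 3.33 ± 0.17 (SE, adjusted p = 2.33e-21). Nubian replicate 1 lay apart below the other goats there. Of its 607 progenitor granulosa nuclei, 73 formed cluster 30, which held no other goat, and their part in the low value was not tested. SEMA5B measured 168, 70.5, 239 and 243 CPM in pericyte nuclei (log2 fold change 3.50 ± 0.30, SE, adjusted p = 1.85e-13) and overlapped epithelial nuclei. Class 6 semaphorins are transmembrane ligands of A-type plexins. SEMA6B measured 25.1, 30.4, 16.3 and 29.4 CPM in blood and 27, 15.7, 12.2 and 13.9 CPM in lymphatic endothelial nuclei, which overlapped each other and no other class, with log2 fold changes of 6.05 ± 0.35 (SE, adjusted p = 1.22e-17) and 5.51 ± 0.40 (SE, adjusted p = 9.73e-15). SEMA6C measured 25.6, 34.5, 31.8 and 21.3 CPM in cumulus granulosa nuclei and overlapped mural granulosa, fibroblast, pericyte and smooth muscle nuclei (log2 fold change 1.5 ± 0.23, SE, adjusted p = 7.99e-07). Its mean in the mural class, 48.3 CPM, came from 19.2, 21.6 and 104 CPM (without Du'an replicate 1) and was 20.4 CPM without Nubian replicate 2. SEMA6D measured 52.7, 92.4, 67.1 and 109 CPM in cycling nuclei (log2 fold change 1.43 ± 0.21, SE, adjusted p = 1.49e-07), a level within the range of 7 other classes, mural granulosa being the highest. SEMA7A, which is anchored by a lipid and signals through plexin C1 and integrins, was higher in blood endothelial nuclei, at 138 ± 32.1 CPM (SD, n = 4), and its log2 fold change was 1.94 ± 0.21 (SE, adjusted p = 1.26e-10). It was also called higher in progenitor granulosa nuclei, with a mean of 84.7 CPM and values that overlapped the blood endothelial ones.

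Among the plexins, which are the semaphorin receptors, PLXNC1 was highest in immune and PLXND1, PLXNA2 and PLXNA4 in endothelial nuclei. PLXNC1, the receptor of SEMA7A, measured 887, 509, 523 and 391 CPM in macrophage nuclei and 571, 381, 347 and 277 CPM in T or natural killer nuclei. These classes overlapped each other and no other class, and the log2 fold changes were 4.63 ± 0.19 (SE, adjusted p = 4.63e-26) and 4.0 ± 0.20 (SE, adjusted p = 8.98e-23). PLXND1, the receptor of SEMA3E, averaged 76.1 ± 8.61 CPM (SD, n = 4) in blood and 71.3 ± 5.1 CPM (SD, n = 4) in lymphatic endothelial nuclei, with log2 fold changes of 3.20 ± 0.20 (SE, adjusted p = 9.04e-19) and 3.14 ± 0.21 (SE, adjusted p = 9.79e-18). PLXNA2 was higher in both endothelial classes as well, at 398 ± 76.6 CPM (SD, n = 4) and 361 ± 57.3 CPM (SD, n = 4), and PLXNA4 was highest in the lymphatic class, at 267 ± 40.2 CPM (SD, n = 4), and its log2 fold change was 3.05 ± 0.26 (SE, adjusted p = 6.18e-14). PLXND1 was also called higher in macrophage, theca, pericyte and smooth muscle nuclei. PLXNA2 was also called higher in cumulus granulosa, cycling and progenitor granulosa nuclei. Further higher calls of PLXNA4 fell in blood endothelial, epithelial, fibroblast, progenitor granulosa and smooth muscle nuclei. PLXNB1, a receptor of SEMA4D, averaged 183 ± 28.1 CPM (SD, n = 2) in ciliated nuclei (log2 fold change 3.64 ± 0.22, SE, adjusted p = 1.13e-19) and was also called higher in epithelial nuclei. PLXNA1 was not higher in any class, and PLXNA3 was named for theca nuclei, where 11 UMIs gave 18.1, 4.79, 5.22 and 20.9 CPM. The log2 fold change of PLXNA3 was 1.46 ± 0.51 (SE, adjusted p = 0.0406), and without Nubian replicate 2 it was 0.64 (adjusted p = 0.718), with the call lost without Du'an replicate 1 too (adjusted p = 0.0804).

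Of the ephrins, EFNA1, EFNA4, EFNA5 and EFNB2 were highest in endothelial nuclei. EFNB2, the arterial ephrin, averaged 448 ± 91.4 CPM (SD, n = 4) in lymphatic and 331 ± 67.4 CPM (SD, n = 4) in blood endothelial nuclei, with log2 fold changes of 3.89 ± 0.21 (SE, adjusted p = 1.30e-21) and 3.38 ± 0.21 (SE, adjusted p = 1.24e-18). EFNA4 measured 41.9, 64.4, 96.6 and 44.8 CPM in blood endothelial nuclei, above every goat of the other classes (log2 fold change 4.53 ± 0.25, SE, adjusted p = 9.14e-21). EFNA1, induced by tumour necrosis factor in endothelium, averaged 50.3 ± 11.1 CPM (SD, n = 4) and 39.4 ± 6.06 CPM (SD, n = 4) in lymphatic and blood endothelial nuclei, and its log2 fold changes were 4.68 ± 0.27 (SE, adjusted p = 2.43e-19) and 4.25 ± 0.28 (SE, adjusted p = 1.38e-17). EFNA5 was higher in 6 classes and lower in 7, from 1076 ± 126 CPM (SD, n = 4) in lymphatic endothelial down to 9.76 ± 3.59 CPM (SD, n = 3) in mural granulosa nuclei. EFNA2 was named for theca nuclei, where 10 UMIs gave 36.1, 4.79, 10.4 and 6.97 CPM. The log2 fold change of EFNA2 was 2.42 ± 0.62 (SE, adjusted p = 0.00359), and the call was lost without Du'an replicate 1 (adjusted p = 0.0856), the goat with the highest value, and its direction turned with nuclei classed one by one (log2 fold change -4.89).

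EphA receptors, which mainly bind ephrin-A ligands, were divided among classes. EPHA3 measured 336, 190.3 and 113 CPM (without Du'an replicate 1) in mural granulosa nuclei, above every goat of the other classes (log2 fold change 3.85 ± 0.23, SE, adjusted p = 1.69e-18). EPHA4, which binds ephrins of both kinds, measured 161, 418 and 143 CPM (without Du'an replicate 1) in the same nuclei and overlapped blood endothelial and cycling nuclei (log2 fold change 2.83 ± 0.30, SE, adjusted p = 1.48e-10). In blood endothelial nuclei EPHA4 averaged 235 ± 53.7 CPM (SD, n = 4), and its log2 fold change was 3.34 ± 0.30 (SE, adjusted p = 1.69e-13). EPHA7 measured 372, 599, 659 and 82 CPM in smooth muscle nuclei, lowest in Nubian replicate 2, whose value lay within the range of 6 other classes. The log2 fold change of EPHA7 was 3.48 ± 0.31 (SE, adjusted p = 2.29e-13). EPHA6 measured 541, 1288, 864 and 1838 CPM in epithelial and 982 CPM in Du'an replicate 2 and 1125 CPM in Nubian replicate 2 in ciliated nuclei, and no goat of any other class reached these values, with log2 fold changes of 5.31 ± 0.24 (SE, adjusted p = 6.11e-24) and 5.49 ± 0.31 (SE, adjusted p = 2.07e-20). EPHA1 was called in ciliated nuclei from 5 UMIs, with 9.5 CPM in Du'an replicate 2 and 4.59 CPM in Nubian replicate 2 and a log2 fold change of 5.18 ± 0.98 (SE, adjusted p = 8.39e-05), and DESeq2 did not call it (adjusted p = 0.189). EPHA2, an epithelial and endothelial receptor, measured 19.6, 18.3, 19.9 and 13 CPM in progenitor granulosa nuclei (log2 fold change 2.34 ± 0.31, SE, adjusted p = 3.33e-08) and averaged 28.7 ± 8.23 CPM (SD, n = 4) in lymphatic endothelial nuclei.

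Among EphB receptors, the partners of ephrin-B, EPHB1, EPHB2 and EPHB4 had their highest means in lymphatic endothelial nuclei. EPHB1 measured 422, 627, 501 and 561 CPM in lymphatic endothelial nuclei, above every goat of the other classes, with a log2 fold change of 6.22 ± 0.24 (SE, adjusted p = 2.65e-27). EPHB4, the venous receptor, averaged 74.2 ± 15.1 CPM (SD, n = 4) there and 18.1 ± 3.26 CPM (SD, n = 4) in blood endothelial nuclei, with log2 fold changes of 4.22 ± 0.25 (SE, adjusted p = 1.42e-19) and 2.01 ± 0.32 (SE, adjusted p = 1.30e-06). Smooth muscle nuclei were higher in EPHB3, at 38.1, 46.9, 42 and 18.4 CPM (log2 fold change 2.75 ± 0.29, SE, adjusted p = 4.08e-11), and in EPHB2, at 51.1, 63.4, 30.2 and 42.4 CPM (log2 fold change 2.53 ± 0.28, SE, adjusted p = 1.74e-10). Both genes overlapped theca nuclei, EPHB3 also fibroblast nuclei, and EPHB2 also epithelial and lymphatic endothelial nuclei. EPHB2 was called higher in these 3 classes too, and its means of 68.1 CPM in lymphatic endothelial and 67.2 CPM in theca nuclei were its highest. EPHB6, which lacks kinase activity, measured 49.2, 15.1, 9.39 and 7.81 CPM in epithelial and 10.7, 11.3, 4.05 and 3.13 CPM in progenitor granulosa nuclei, with log2 fold changes of 3.42 ± 0.69 (SE, adjusted p = 0.000139) and 2.54 ± 0.54 (SE, adjusted p = 0.000244). The epithelial values overlapped those of ciliated and progenitor granulosa nuclei, and the progenitor values overlapped 7 other classes. Ciliated nuclei had the highest mean of EPHB6, at 20.9 CPM, and were also called higher. The epithelial level of EPHB6 rests on 28 UMIs, and the epithelial call was lost when nuclei were classed one by one from their own marker score (adjusted p = 0.177).

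Netrin 1 (NTN1), the classical secreted netrin, was highest in cycling and cumulus granulosa nuclei. It measured 1694, 734, 918 and 1429 CPM in cumulus granulosa and 2485, 1633, 479 and 1646 CPM in cycling nuclei. The log2 fold changes were 2.48 ± 0.23 (SE, adjusted p = 1.13e-12) and 2.82 ± 0.22 (SE, adjusted p = 5.90e-15), and the values overlapped those of progenitor granulosa and lymphatic endothelial nuclei. In cycling nuclei Nubian replicate 1 was the lowest goat. Of its 907 cycling nuclei, 787 came from cluster 15, which held 0, 45 and 58 nuclei of the other goats. Cycling nuclei carried granulosa markers, which summed to 7136 to 8650 CPM per goat, and mural granulosa markers at 773 to 11061 CPM. After the cycling list, cluster 15 scored highest for mural and cluster 14, the other cycling cluster, for cumulus granulosa. The part of this mixture in the level of NTN1 was not tested. NTN4, a basement membrane netrin, measured 286, 204, 196 and 80.8 CPM in pericyte nuclei (log2 fold change 2.89 ± 0.27, SE, adjusted p = 4.83e-12), overlapped both endothelial classes and epithelial nuclei, and averaged 333 ± 78.1 CPM (SD, n = 4) in lymphatic endothelial nuclei. NTNG1, which is anchored to the membrane, was higher in fibroblast, lymphatic endothelial and progenitor granulosa nuclei, at 92.5 ± 75.2 CPM (SD, n = 4), 58.4 ± 42.3 CPM (SD, n = 4) and 34.1 ± 27.8 CPM (SD, n = 4). Its log2 fold changes in these classes were 3.25 ± 0.63 (SE, adjusted p = 9.31e-05), 3.23 ± 0.43 (SE, adjusted p = 1.86e-08) and 2.76 ± 0.41 (SE, adjusted p = 4.39e-07). NTNG2 was called in no class, and its highest mean, 6.09 CPM in theca nuclei, rests on 5 UMIs.

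The 4 netrin receptors that were tested had their highest levels in mural granulosa and lymphatic endothelial nuclei. UNC5C, a receptor that mediates repulsion, measured 1044, 777 and 583 CPM (without Du'an replicate 1) in mural granulosa nuclei. Smooth muscle nuclei were the one other class to overlap these values, and the log2 fold change was 2.73 ± 0.24 (SE, adjusted p = 2.14e-13). UNC5B, the vascular receptor of the family, averaged 346 ± 95.6 CPM (SD, n = 4) in lymphatic endothelial, 76.2 ± 35.4 CPM (SD, n = 4) in blood endothelial and 55.9 ± 22.9 CPM (SD, n = 4) in progenitor granulosa nuclei, with log2 fold changes of 4.65 ± 0.20 (SE, adjusted p = 3.64e-25), 2.15 ± 0.25 (SE, adjusted p = 4.26e-10) and 1.93 ± 0.24 (SE, adjusted p = 9.07e-09). UNC5B was also called higher in macrophage nuclei. UNC5D averaged 417 ± 210.3 CPM (SD, n = 4) in lymphatic endothelial nuclei (log2 fold change 4.82 ± 0.31, SE, adjusted p = 2.42e-18) and was also called higher in smooth muscle nuclei. NEO1, which also binds repulsive guidance molecules, was seen in every class, from 42.1 CPM in T or natural killer to 428 ± 215 CPM (SD, n = 4) in lymphatic endothelial nuclei, and was higher in the latter alone (log2 fold change 1.38 ± 0.18, SE, adjusted p = 1.53e-08). The lymphatic values of NEO1 were 552, 487, 563 and 109 CPM. That of Nubian replicate 2 lay below every goat of the cumulus granulosa nuclei (236 to 290 CPM).

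The tested genes not yet described were highest in stromal, epithelial or vessel nuclei. EFNB1, an ephrin that binds EphB receptors, reached its highest mean in fibroblast nuclei, at 11.6 ± 10.4 CPM (SD, n = 4). EPHA5 and SEMA4C were also highest there, at 98.1 ± 65.3 CPM (SD, n = 4) and 25.2 ± 15.4 CPM (SD, n = 4). For each of the 3, leaving out 1 goat put another class first, and the EFNB1 mean was 7.05 CPM without Nubian replicate 2. SEMA4B was highest in epithelial nuclei, at 106 ± 38 CPM (SD, n = 4), and SEMA6A in lymphatic endothelial nuclei, at 1006 ± 146 CPM (SD, n = 4) (log2 fold change 3.49 ± 0.18, SE, adjusted p = 1.95e-22).

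Counted by class, higher calls were most frequent in lymphatic endothelial nuclei and lower calls in T or natural killer nuclei. Of the 52 genes, 24 were higher in lymphatic endothelial nuclei (46.2% against 13.1% of all genes tested) and 6 lower (11.5% against 4.05%), with a median log2 fold change of 0.81 beside 0.01 over all genes. Blood endothelial nuclei had 20 higher (38.5% against 14.4%) and 10 lower (19.2% against 4.04%), with a median log2 fold change of 0.09 beside 0.02. Epithelial nuclei had 20 higher (38.5% against 12.1%) and 8 lower (15.4% against 6.09%), with a median of 0.48 beside -0.08. In T or natural killer nuclei 3 genes were higher (5.77% against 19.1%) and 33 lower (63.5% against 17.8%), with a median log2 fold change of -1.60 beside -0.05. Macrophage nuclei had 5 higher (9.62% against 22.7%) and 25 lower (48.1% against 12.3%), with a median of -1.11 beside 0.00. Mural granulosa nuclei had 10 higher (19.2% against 7.6%) and 18 lower (34.6% against 12.3%), with a median of -0.59 beside -0.01.

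The remaining classes had between 4 and 13 genes higher. Smooth muscle nuclei had 13 genes higher (25% against 11.7%) and 6 lower (11.5% against 2.67%). Progenitor granulosa nuclei had 12 genes higher (23.1% against 9.32%) and 5 lower (9.62% against 6.36%). Ciliated nuclei had 12 genes higher (23.1% against 15.2%) and 5 lower (9.62% against 6.54%). Fibroblast nuclei had 11 genes higher (21.2% against 10.2%) and 3 lower (5.77% against 1.68%). Pericyte nuclei had 6 genes higher (11.5% against 6.59%) and 3 lower (5.77% against 1.59%). Theca nuclei had 6 genes higher (11.5% against 6.11%) and 2 lower (3.85% against 4.24%). Cumulus granulosa nuclei had 5 genes higher (9.62% against 8.42%) and 7 lower (13.5% against 9.19%). Cycling nuclei had 4 genes higher (7.69% against 9.55%) and 10 lower (19.2% against 11.6%).

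Between the endothelial classes, lymphatic nuclei held more of most guidance genes that differed. Of 52 tested, 18 were higher in lymphatic and 4 in blood endothelial nuclei, 42.3% in either direction against 11.5% of all genes tested (5.97% higher in lymphatic and 5.53% in blood nuclei). SEMA3D measured 686, 542, 677 and 582 CPM in lymphatic and 18.3, 8.98, 11.1 and 4.2 CPM in blood endothelial nuclei. UNC5D measured 578, 562, 124 and 404 CPM in lymphatic and 6.85, 6.49, 18.9 and 2.8 CPM in blood nuclei. EPHB2 measured 73.2, 83.8, 57.4 and 58 CPM in lymphatic and 2.28, 0.499, 3.92 and 0 CPM in blood nuclei. In none of the 3 did the classes overlap, and the log2 fold changes, blood minus lymphatic, were -6.00 ± 0.52 (SE, adjusted p = 1.14e-12), -5.68 ± 0.66 (SE, adjusted p = 2.35e-09) and -5.27 ± 0.54 (SE, adjusted p = 1.15e-10). The other genes higher in the lymphatic class were SEMA3A, SEMA3E, NTNG1, EPHB1, SEMA4F, NEO1, NTN4, UNC5B, NTN1, EPHB4, PLXNA4, SEMA4D, SEMA6A, PLXNB1 and EFNA5. SEMA4F overlapped between the classes, at 0, 5.45, 6.96 and 0 CPM in lymphatic and 0.761, 0.998, 0 and 0 CPM in blood nuclei. The list of 8 blood endothelial markers, KDR among them, was not particular to blood nuclei. All 8 were detected in lymphatic nuclei, with a summed level of 2022 to 2303 CPM per goat against 3752 to 4836 in blood nuclei. The 6 lymphatic markers summed to 187 to 276 CPM in blood nuclei against 7584 to 14175 in lymphatic nuclei. Whether the blood markers in lymphatic nuclei were their own RNA was not tested, nor was the part of other cells in these differences.

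SEMA3G, EPHA4, EFNA4 and SEMA7A were higher in blood endothelial nuclei. SEMA3G measured 52.5, 27.4, 56.8 and 39.2 CPM in blood and 0, 0, 2.61 and 0 CPM in lymphatic nuclei, where it was at 0 in all goats but Nubian replicate 1. EPHA4 measured 275, 163, 223 and 277 CPM in blood and 11.6, 21.1, 82.2 and 13.9 CPM in lymphatic nuclei. EFNA4 measured 8.99, 12.3, 12.2 and 4.64 CPM in lymphatic nuclei, below each of its blood values. The classes did not overlap in these genes. EPHA4 and EFNA4 had log2 fold changes of 3.48 ± 0.53 (SE, adjusted p = 1.27e-06) and 2.52 ± 0.40 (SE, adjusted p = 3.16e-06). SEMA3G, with 6 UMIs in all lymphatic nuclei, had a log2 fold change of 5.41 ± 0.59 (SE, adjusted p = 1.66e-09). EFNB2 was not called between the classes, with a log2 fold change of -0.48 ± 0.35 (SE, adjusted p = 0.477).

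**Figure D2:**
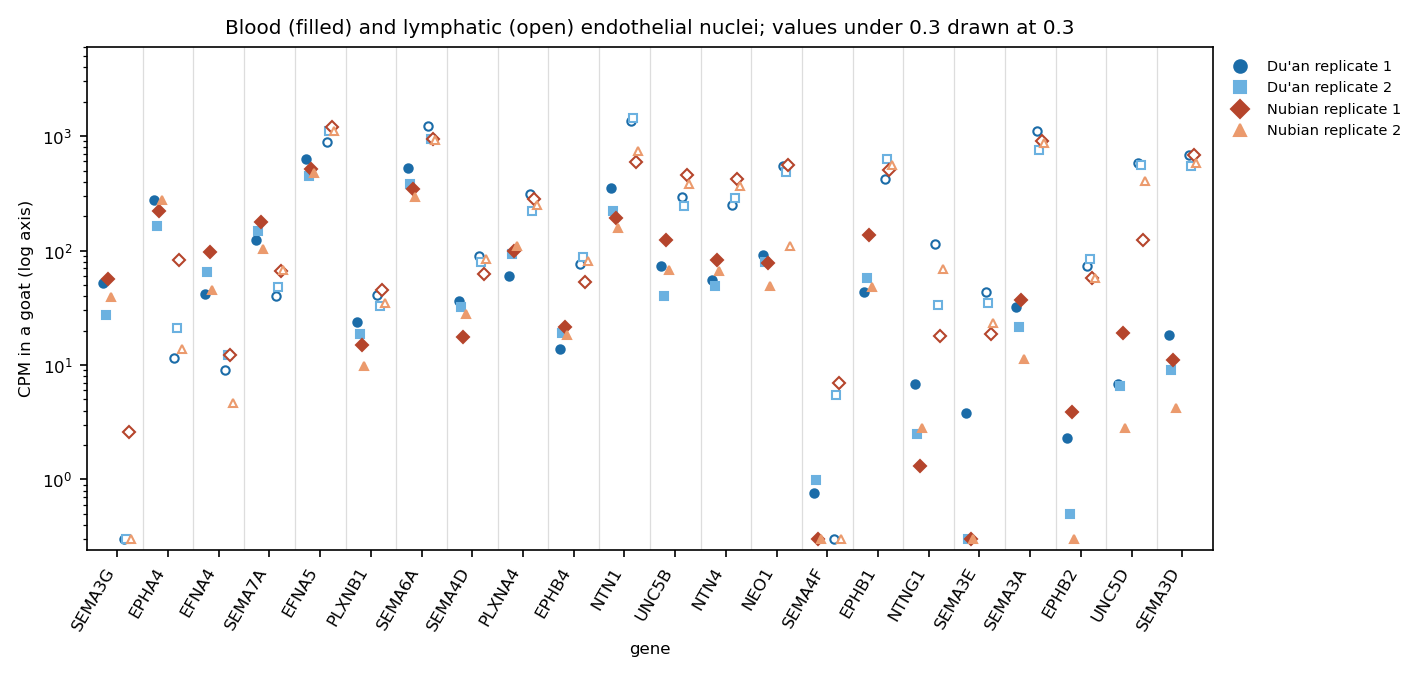
CPM of each goat (log axis, values near 0 at the bottom) for the guidance genes called between blood (filled) and lymphatic (open) endothelial nuclei, ordered by log2 fold change, with colours and shapes for goats. SEMA3G is at the left with filled points above open ones, and SEMA3D at the right with open points above filled ones.

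Blood endothelial nuclei came from clusters 12 and 20, which differed in the arterial gene EFNB2. They were set side by side after their values were seen, so no test is given. EFNB2 measured 872, 539, 714 and 638 CPM in cluster 20, which was led by BMX and GJA5, and 63.7, 80.3, 102 and 96.2 CPM in cluster 12. EPHB4 measured 11.7, 4.47, 16.2 and 12.5 CPM in cluster 20 and 15, 26.3, 25.8 and 22.8 CPM in cluster 12. Every goat was lower in cluster 20, but these levels rest on 24 UMIs in cluster 20 and 78 in cluster 12, and the clusters overlapped. SEMA3G showed the direction of EFNB2, with 127, 78.9, 122 and 87.5 CPM in cluster 20 and 5, 1.5, 4.7 and 0 CPM in cluster 12. SEMA6A ran the other way, with 166, 129.5, 160.1 and 59.4 CPM in cluster 20 and 749, 503, 489.9 and 478 CPM in cluster 12. In EFNB2, SEMA3G and SEMA6A the goats of the clusters did not overlap.

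**Figure D3:**
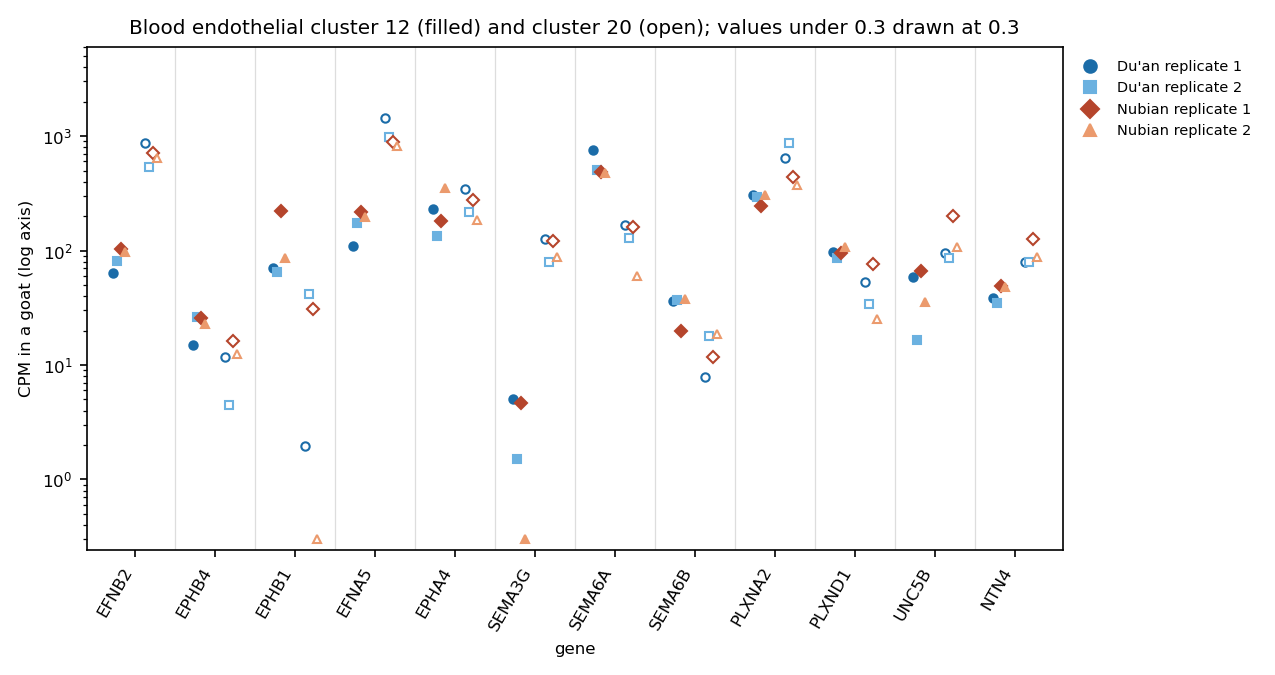
CPM of each goat (log axis, values near 0 at the bottom) for guidance genes in blood endothelial clusters 12 (filled) and 20 (open). EFNB2 and SEMA3G lie higher in cluster 20, and SEMA6A lies higher in cluster 12.

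Between mural and cumulus granulosa nuclei, netrin 1 and its receptor UNC5C went opposite ways. Of 52 genes tested, 9 were higher in mural and 11 in cumulus nuclei, 38.5% against 11.8% of all genes tested (4.5% higher in mural and 7.32% in cumulus nuclei). NTN1 measured 98.8, 205 and 148 CPM (without Du'an replicate 1) in mural and 1694, 734, 918 and 1429 CPM in cumulus nuclei (log2 fold change -2.65 ± 0.45, SE, adjusted p = 1.67e-05). Folds here are mural minus cumulus. UNC5C measured 1044, 777 and 583 CPM (without Du'an replicate 1) in mural and 196, 157, 339 and 199 CPM in cumulus nuclei (log2 fold change 2.04 ± 0.38, SE, adjusted p = 7.74e-05), and neither gene overlapped between the classes. The 3 goats with enough mural nuclei each filled mostly a cluster of its own, cluster 13 for Du'an replicate 2 (1298 of 1348 nuclei), cluster 2 for Nubian replicate 1 (4890 of 5001) and cluster 25 for Nubian replicate 2 (299 of 310).

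EPHA3 measured 336, 190.3 and 113 CPM (without Du'an replicate 1) in mural and 5.6, 11.6, 17.8 and 6.27 CPM in cumulus nuclei (log2 fold change 4.26 ± 0.40, SE, adjusted p = 8.62e-11). EPHA4 measured 10, 20.4, 67.5 and 12 CPM in cumulus nuclei, below its mural values (log2 fold change 3.22 ± 0.49, SE, adjusted p = 2.28e-06). SEMA6A measured 389.9, 339 and 551 CPM (without Du'an replicate 1) in mural and 138, 70.6, 79.8 and 102 CPM in cumulus nuclei (log2 fold change 2.37 ± 0.34, SE, adjusted p = 6.06e-07). EPHA5, SEMA3D, PLXND1, SEMA3C and SEMA6D were higher in mural nuclei too. In the other direction, UNC5B measured 1.35, 4.77 and 3.23 CPM (without Du'an replicate 1) in mural and 21, 14.7, 59.5 and 6.27 CPM in cumulus nuclei (log2 fold change -2.76 ± 0.44, SE, adjusted p = 5.85e-06). UNC5D measured 3.27, 12.8 and 2.16 CPM (without Du'an replicate 1) in mural and 25.9, 33, 55.3 and 14.6 CPM in cumulus nuclei (log2 fold change -2.11 ± 0.61, SE, adjusted p = 0.0118). Without Du'an replicate 2 the call of UNC5D was lost (adjusted p = 0.143). EPHA7, EPHA2, SEMA5B, PLXNA4, EFNA5, SEMA5A, SEMA3B and PLXNA2 completed the genes higher in cumulus nuclei.

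Progenitor granulosa nuclei held more of most guidance genes that differed from cumulus nuclei. Of 52 tested, 13 were higher in progenitor and 2 in cumulus nuclei, 28.8% against 16% of all genes tested (9.57% higher in progenitor and 6.47% in cumulus nuclei). NTNG1 measured 8.72, 73.3, 32 and 22.4 CPM in progenitor and 6.1, 1.44, 4.11 and 3.48 CPM in cumulus nuclei. PLXND1 measured 4.03, 16.9, 8.83 and 3.58 CPM in progenitor and 0.678, 0.749, 2.51 and 0.174 CPM in cumulus nuclei. EPHA2 measured 5.76, 1.67, 3.19 and 1.74 CPM in cumulus nuclei, below its progenitor values of 19.6, 18.3, 19.9 and 13 CPM. The 3 genes did not overlap between the classes. The log2 fold changes, cumulus minus progenitor, were -3.30 ± 0.58 (SE, adjusted p = 1.58e-05), -2.88 ± 0.39 (SE, adjusted p = 7.17e-08) and -2.68 ± 0.42 (SE, adjusted p = 1.86e-06). SEMA3C measured 143, 117, 207 and 166 CPM in cumulus and 36.9, 43, 95.7 and 57.2 CPM in progenitor nuclei (log2 fold change 1.40 ± 0.36, SE, adjusted p = 0.00249). SEMA6C measured 25.6, 34.5, 31.8 and 21.3 CPM in cumulus and 9.9, 15.5, 14.4 and 7.15 CPM in progenitor nuclei (log2 fold change 1.24 ± 0.35, SE, adjusted p = 0.00561). Some of these calls were lost under an alternative: SEMA3C with the markers left out of clustering, SEMA6C at a resolution of 0.4 and NTNG1 with nuclei classed one by one (adjusted p = 0.0605, 0.154 and 0.151).

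**Figure D4:**
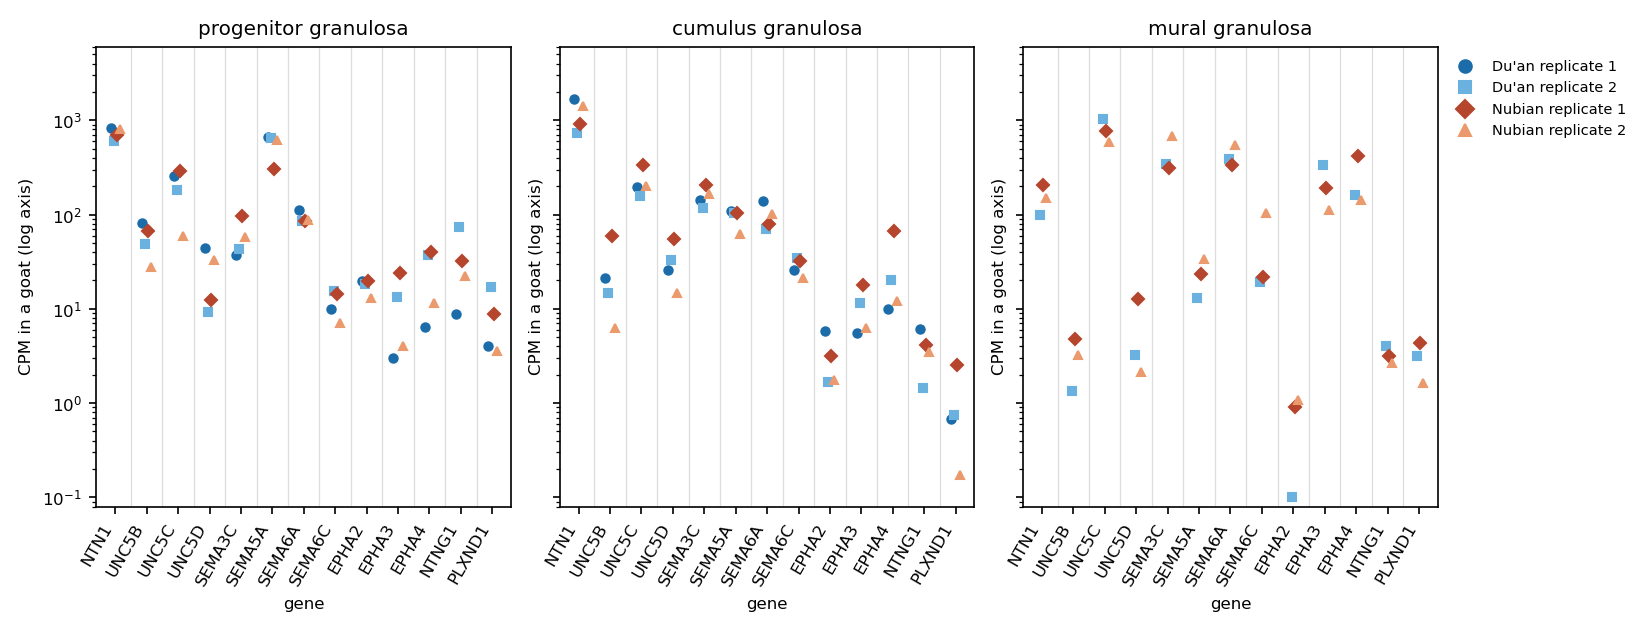
CPM of each goat (log axis) for guidance genes in progenitor, cumulus and mural granulosa nuclei. NTN1 and UNC5B lie lower and UNC5C, EPHA3 and EPHA4 higher in mural than in cumulus nuclei, and Du'an replicate 1 has no mural point.

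No guidance gene was called between breeds in the 12 classes with 2 goats on each side. Over 343 tests of a gene in a class edgeR called 0 and none of all genes (background 0%), with 29 at an unadjusted p under 0.05, and the lowest adjusted p was 0.27. DESeq2 called 0 guidance genes and was positive in 353 of 96639 tests of all genes (0.365%), a share too low for 0 to be particular to the guidance genes. The breeds did not overlap in 98 of the 343 tests, 28.6% against 31.9% of all genes tested. In simulated counts for cumulus granulosa nuclei, with 12364 genes tested, a change of 2-fold was recovered in 8% and of 4-fold in 86% of 100 changed genes each, so the absence of a call does not show that the breeds are alike. Recovered here meant an adjusted p under 0.05 and a rise, without the log2 limit of 1 that a call needed. These are therefore not shares of calls. The simulated counts also used 1 fixed spread for all genes, not the spread of the real goats. The shares recovered may therefore not hold for the data. The fit without a filter on low counts called 14 of 649 tests of guidance genes (2.16% against 0.892% of the tests of all genes). Leaving out Du'an replicate 1 called 1 of 436 tests of guidance genes (0.229% against 0.0933% of the tests of all genes), and leaving out Du'an replicate 2 called 1 of 358 tests of guidance genes (0.279% against 0.0821% of the tests of all genes). Without Nubian replicate 1 there were calls in 1 of 370 tests of guidance genes (0.27% against 0.714% of the tests of all genes), and without Nubian replicate 2 in 8 of 377 tests of guidance genes (2.12% against 0.387% of the tests of all genes). Without 1 goat, a breed has a lone goat that is assumed to vary like the others. Without Nubian replicate 2, NTNG1, SEMA3C, SEMA3A, SEMA3D, EPHA5 and EFNA5 were called in fibroblast nuclei, where the remaining Nubian goat filled cluster 18, and UNC5D in lymphatic endothelial and smooth muscle nuclei. The single calls were SEMA3A in fibroblast (without Du'an replicate 1), EPHB2 in theca (without Du'an replicate 2) and SEMA3D in fibroblast nuclei (without Nubian replicate 1).

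The values with the lowest unadjusted p, picked after they were seen, show the spread. EPHA6 in macrophage nuclei measured 2.37, 5.26, 25.5 and 24.9 CPM (unadjusted p = 0.0031, adjusted p = 0.569 by edgeR), higher in both Nubian goats. Macrophage nuclei came from clusters 16 and 17, with 73, 338, 320 and 112 nuclei of the goats, in the same order, in cluster 16 and 102, 133, 136 and 447 in cluster 17. SEMA3D in fibroblast nuclei measured 381, 78.2, 21 and 12.6 CPM (unadjusted p = 0.00343, adjusted p = 0.336 by edgeR), lower in both Nubian goats. Fibroblast nuclei came from clusters 18 and 29, with 11, 35, 556 and 15 nuclei of the goats in cluster 18 and 18, 45, 12 and 11 in cluster 29, and the part of this split in the difference was not tested. SEMA3A ran the other way in the same nuclei, with 38.1, 4.89, 138 and 113 CPM (unadjusted p = 0.00534, adjusted p = 0.382 by edgeR).

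**Figure D5:**
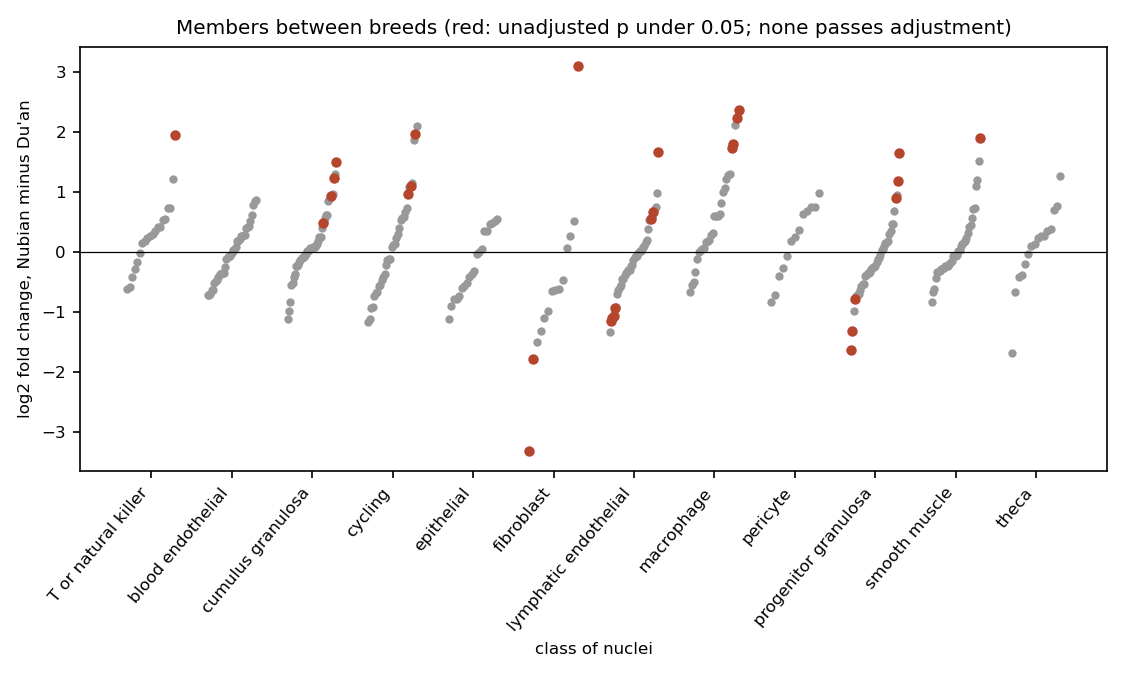
Log2 fold change, Nubian minus Du'an, of each guidance gene tested in each class. Red points have an unadjusted p under 0.05, 29 in all, and none passes the adjustment over all genes.

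Genes that act with guidance receptors were followed from a list of 53, of which 51 were found and 46 tested. Of these, 38 were higher in at least 1 class, 82.6% against 70.7% of all genes tested. Of those tested, the genes higher in some class were 9 of 11 ephrin and Eph effectors, 11 of 12 netrin partners, 11 of 15 plexin effectors and 7 of 8 semaphorin co-receptors and co-factors. Higher calls were most frequent in lymphatic endothelial nuclei, with 22 of 46 higher (47.8% against 13.1%) and 2 lower (4.35% against 4.05%), and lower calls in T or natural killer nuclei, with 6 of 46 higher (13% against 19.1%) and 26 lower (56.5% against 17.8%). KDR, the main VEGF receptor, was among the genes higher in lymphatic endothelial nuclei, at 310.1 ± 26.8 CPM, log2 fold change 4.86 ± 0.25 (SE, adjusted p = 5.77e-22). Blood endothelial nuclei had 9 of 46 higher (19.6% against 14.4%) and 4 lower (8.7% against 4.04%), with KDR at 462 ± 138 CPM. KDR is 1 of the markers that named the blood endothelial class, so its call there was fixed in advance and is no result. The partner genes were not left out of the genes used for clustering, and their list was chosen with earlier results of these data known. A partner gene could also pass the filter on low counts through the class where it is high. The partner counts and shares therefore describe the list and support nothing further. Macrophage nuclei had 11 of 46 higher (23.9% against 22.7%) and 15 lower (32.6% against 12.3%), with TREM2 at 51.9 ± 38.8 CPM, log2 fold change 6.81 ± 0.35 (SE, adjusted p = 2.89e-20). Progenitor granulosa nuclei had 13 of 46 higher (28.3% against 9.32%) and 5 lower (10.9% against 6.36%), among the higher ones the class 3 semaphorin receptor neuropilin 2 (NRP2) at 899 ± 119 CPM, log2 fold change 3.09 ± 0.15 (SE, adjusted p = 1.60e-22). Theca nuclei were higher in neuropilin 1 (NRP1), at 862 ± 264 CPM, log2 fold change 1.67 ± 0.23 (SE, adjusted p = 2.14e-07), and in RGMA, a ligand of neogenin, at 156 ± 83.1 CPM, log2 fold change 4.42 ± 0.31 (SE, adjusted p = 6.98e-16). In cumulus granulosa nuclei, MYO10, a motor that carries DCC, measured 774 ± 149 CPM, log2 fold change 2.28 ± 0.22 (SE, adjusted p = 4.74e-12). The other partner genes that led a class were L1CAM (T or natural killer and blood endothelial), FYN (T or natural killer), DSCAML1 (ciliated), TIAM1 (ciliated and epithelial), GRIP1 (cumulus granulosa), MET (epithelial), FLRT2 and DPYSL3 (fibroblast), RND1 (lymphatic endothelial), VAV3 (macrophage), INPPL1 (mural granulosa), LRRC4C and ITGA1 (pericyte), CRMP1 (progenitor granulosa), NRP2 and MICAL1 (smooth muscle).

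Cluster 3, with 4760 nuclei that took no class name, held guidance genes as well. Most of its nuclei came from Du'an replicate 1 (1996) and Nubian replicate 2 (2620), with 97 and 47 from the others. NTNG1 measured 60.1, 0, 8.13 and 84.6 CPM, high in the goats that filled the cluster. EPHB6 measured 29.8, 0, 32.5 and 25.6 CPM, and NTN1 570.2, 249, 496 and 404 CPM. In Du'an replicate 2 and Nubian replicate 1, with 97 and 47 nuclei, the NTNG1 and EPHB6 values rest on few UMIs or none. The best marker list of the cluster was progenitor granulosa (mean log2 fold 1.03), too close to the glial or neural list (0.76) for a name. The cluster was singled out after its values were seen, and no test is given.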

How the data were processed

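Single-nucleus libraries were deposited as UMI count matrices with 1 library per goat, which the authors made with Cell Ranger (5.0.0 in the methods, 3.1.0 in the matrix headers) from left ovaries; whether intronic reads were counted is not given in the sources used here. The values are raw counts. In addition, 2 deposited tables hold the authors' own marker comparisons and were not used.

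Nuclei were kept within 2 SD of the library mean of UMIs and genes and at no more than 20% mitochondrial UMIs. Scrublet called 0, 151, 0 and 0 doublets, which is too few to have worked, so nuclei with the top 10% of scores were removed as an alternative only. Counts were scaled to 10000 per nucleus, and 2000 variable genes without the guidance genes gave 30 principal components and Leiden clusters (leidenalg 0.10.2, resolution 0.8). A cluster took a class name when at least 3 markers were raised, their mean log2 fold was at least 0.5 and the next marker list lay at least 0.5 lower; clusters with a median UMI ratio to their libraries under 0.5 also needed a marker of their own among the 10 leading genes. The naming limits were chosen after the clusters and their markers had been seen.

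Counts were summed per goat and class (at least 20 nuclei, 53 sums) and fitted with edgeR 4.0.16 (TMM, filterByExpr, quasi-likelihood test, 14800 genes) with class and goat as terms, or with breed in each class, and Benjamini-Hochberg adjustment ran over all genes of a contrast. Each SE beside an edgeR log2 fold change was the size of that change divided by the square root of the F statistic. It was not estimated by the fit itself. The test was checked on simulated counts, where 64% of changes of 2-fold and 89% of 4-fold between classes were recovered over 14256 genes. Recovered meant an adjusted p under 0.05 and a rise, without the log2 limit of 1 that a call needed, so these are not shares of calls. The simulated spread was set alike for all genes and not taken from the real goats. Alternatives were DESeq2 1.42.0, no filter, each goat left out, a replicate block between breeds, resolutions of 0.4 and 1.2, markers left out of clustering and nuclei classed by their own marker score. Named genes were the up to 3 with the largest log2 fold change among those called higher in a class and above the mean of the other classes in every goat, up to 3 in each direction of a paired contrast, and up to 2 partner genes per class; other genes named were chosen after their values were seen. The members, marker lists and partner lists were chosen with earlier results of these data known. All 59 symbols matched the RefSeq table of the goat assembly, and no coordinates were used. The goats are separate animals.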

Additional observations from a re-analysis of the deposited data

Results flagged for a closer look

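Among 32 groups of 4 goats checked, 2 held a goat far from the other 3, and chance gives such a gap in about 1 group in 20. SEMA4A in macrophage nuclei was lowest in Du'an replicate 1, at 14.2 CPM, where the gap to the next goat was 0.852 of the whole range. SEMA5A in progenitor granulosa nuclei was lowest in Nubian replicate 1, at 308 CPM, with a gap of 0.901 of the range.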

How the results depend on the processing

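Over the named genes, 577 of the recomputed folds kept their direction and their side of the threshold, 19 kept the direction without passing the threshold, and 2 turned. Those that turned were EFNA2 (-4.89) and SEMA4F (-0.92 on the log2 scale) in theca nuclei, with each nucleus classed by its own marker score; both rest on few UMIs, and the cause was not tested. No value could be had for 7 folds: EPHA1 in ciliated nuclei (markers left out of clustering, top doublet scores removed, without Du'an replicate 2, without Nubian replicate 1), NTN1 and SEMA6D in cycling nuclei (markers left out of clustering) and EFNA2 in theca nuclei (top doublet scores removed). Leaving out 1 goat gave 131 to 149 higher and 92 to 125 lower calls against the other classes, 20 to 22 between blood and lymphatic endothelial, 15 to 20 between mural and cumulus, 12 to 17 between cumulus and progenitor nuclei, and 1 to 8 between breeds. The lowest count, 92, came without Nubian replicate 2. Calls of all genes between classes in the same fits are not given here. A fall between classes can therefore not be read as particular to the guidance genes. Between breeds the fit without a filter on low counts gave 14 calls in 649 tests of guidance genes (2.16%) and 1827 calls over all genes and classes (0.892% of the tests), and the cause was not tested. The other alternatives kept these counts within 1.5 times their main values.

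Replicate numbers name separate animals, and deviations of same-numbered goats correlated between -0.25 and 0.226 over the classes. Whether same-numbered goats share more than a label was not tested. With the replicate block between breeds there were 0 calls of guidance genes and 1 call over all genes and classes (0.00103% of the tests). With the crossed pairing, an alternative added after seeing the data, there were 0 and 156 (0.161% of the tests). The tests between classes already hold the goat as a term.

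Limits are the 2 goats per breed, the nuclei that took no class name, classes that rest on clusters of single goats (mural granulosa, and most fibroblast nuclei of Nubian replicate 1), and genes with few UMIs.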
